A study of Mus musculus with 6 samples.

Results

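Rab GTPases are small GTP-binding proteins of the Ras superfamily that mark the membranes of the secretory and endocytic pathways. The 59 Rab genes described here are those whose platform symbol is Rab, a number and at most 1 further letter and digit, out of 19938 genes on Affymetrix Mouse Gene 1.0 ST arrays. RNA came from 3 samples of M(CSF2) cells and 3 of M(CSF1) cells. These are bone marrow derived macrophages of C57BL/6 mice, induced for 7 days with CSF2 (GM-CSF) or with CSF1 (M-CSF) and put into Trizol after sorting. Both groups share strain, tissue and time in culture, and differ in the growth factor. No group was cultured without a growth factor. The sources used here give neither the sorting marker nor the number and age of the mice. The labels number the samples of a group as biological replicates, but do not say if each came from a mouse of its own, so the p-values reflect sample-to-sample spread that may be technical in part. The values are deposited log2 signals, with array medians from 3.91 to 4.00, and differences are M(CSF2) minus M(CSF1). Arrays correlated at 0.995 to 0.997 within a group and at 0.954 to 0.959 between groups.

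A Rab protein works as a switch. Guanine nucleotide exchange factors (GEFs) load it with GTP at a given membrane, GTP-bound Rab recruits effectors such as tethers and motor adaptors, and GTPase-activating proteins (GAPs) end the signal. Escort proteins and a prenyl transferase attach the lipid tail, and GDP dissociation inhibitors (GDIs) take the protein back into the cytosol. In macrophages this system carries cargo to the surface, recycles receptors, and moves phagosomes and endosomes towards the lysosome.

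Of the 59 Rab genes, 25 differed between the groups at an adjusted p under 0.05 in the limma fit over all genes, 10 of them higher and 15 lower in M(CSF2). The late endosome and phagosome genes Rab7 and Rab7b and the granule genes Rab44 and Rab3d were among the higher ones. Of these, Rab7b was called in only 2 of 6 fits with an array left out. The exocytic and recycling genes Rab10, Rab4a, Rab4b, Rab11a and Rab8b, the early endosome gene Rab31 and the organelle genes Rab38 and Rab32 were among the lower ones. Called genes made up 42.4% of the family and 27.5% of all genes, with 11.9% of all genes higher and 15.6% lower. Among genes above the median signal the shares were closer, 55.0% of 40 Rab genes and 48.6% of 9969 genes. The median difference was 0.02 over the Rab genes and 0.04 over all genes on the log2 scale, and called differences had a median size of 0.64 in the family and 0.69 over all genes. At least 2-fold differences were called for 1 Rab gene higher and 3 lower, where 3.57% of all genes were higher and 4.42% lower by that measure. Without M(CSF2) replicate 1 the count of higher Rab genes was 6, and that of lower ones 13.

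**Figure D1:**
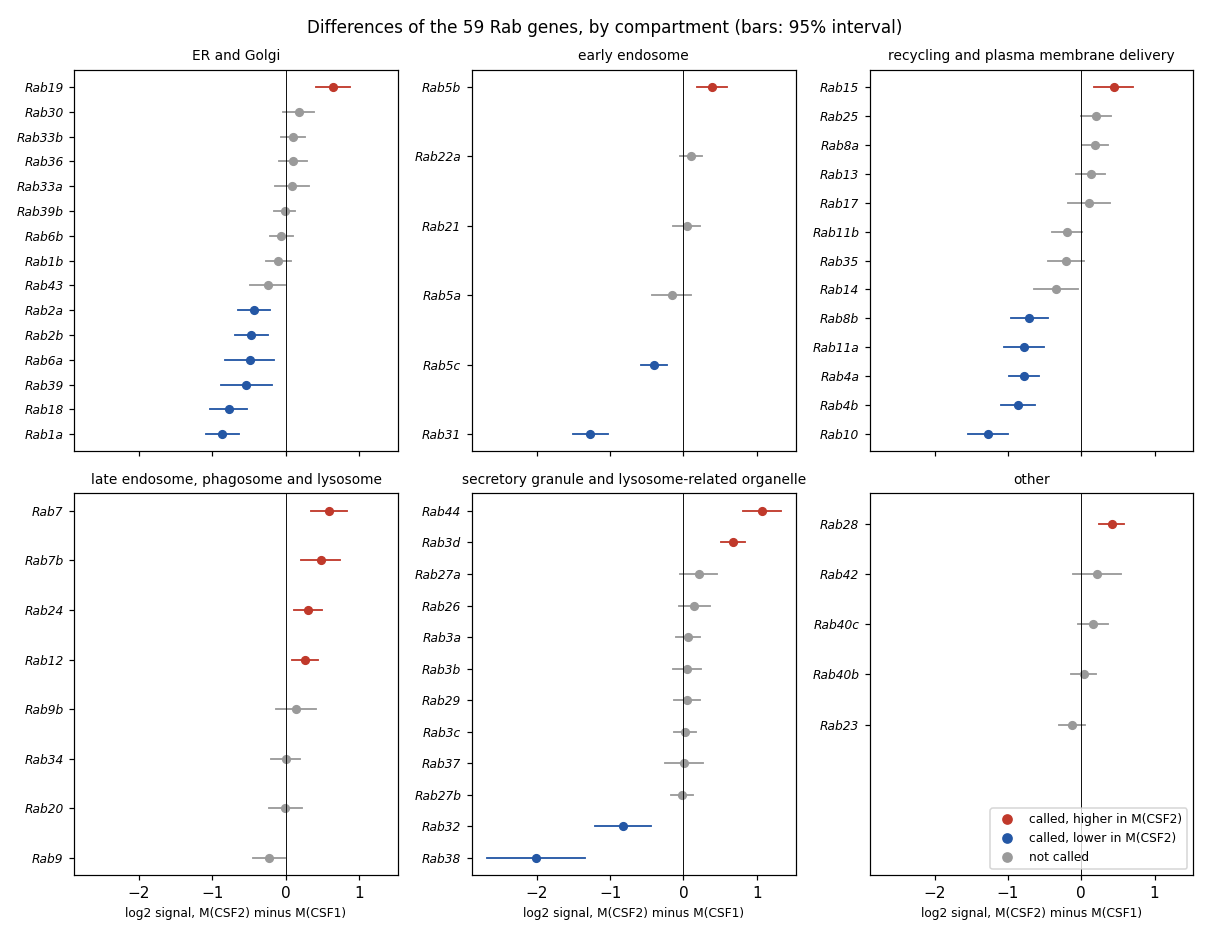
Difference of each of the 59 Rab genes in log2 signal, M(CSF2) minus M(CSF1), with its 95% interval as a bar, in 6 panels by compartment. In the late endosome, phagosome and lysosome panel the 4 called genes lie right of 0. Among them Rab7b, Rab24 and Rab12 lost the call in most fits with an array left out. In the recycling panel 5 of the 6 called genes lie left of 0.

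Every Rab gene was measured by probe sets of its own, and 3 genes had more than 1. Rab2a and Rab5b had a second probe set that gave -0.45 and 0.36, close to the -0.43 and 0.39 of the brighter one. The second probe set of Rab11b gave -0.04, against -0.20 for the brighter one, and neither was called. The 95th percentile of 1027 olfactory receptor genes, at 3.38, served as a floor for signal. Rab3b, Rab3c, Rab30, Rab33a and Rab39b lay at or below it on all 6 arrays, and 49 members lay above it on every array.

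RefSeq promoters of assembly GRCm38.p6 were at hand for 48 of the 59 genes, of which 8 were called higher and 11 lower. A GC box, GGGCGG on either strand, stood in the 250 bases before the start of 36 of them, or 75.0%, against 35.4% of 27025 genes. Those 27025 are all genes with a promoter entry, not only the genes tested, and were not matched for signal. A gene counted if any of its listed starts had the motif. The GC box was held by 6 of the 8 higher genes, 9 of the 11 lower genes and 21 of the 29 not called. The STAT motif TTCNNNGAA, its own reverse complement, was found in 5 genes (10.4%, against 8.13% of all genes), namely Rab19 and Rab15 (higher), Rab11a (lower) and Rab25 and Rab34 (not called). The PU.1 motif GAGGAAGT on either strand was found in Rab32 and Rab2b, both lower, or 4.17% against 2.79% of all genes. An E-box CACGTG was found in 5 genes, none of them called (10.4%, against 6.86% of all genes). These motifs do not overlap in the promoters shown. The 4 promoters below are those of the 2 highest and the 2 lowest called differences with an entry, 5′ to 3′ on the gene's strand and ending at the base before the start, with motif letters in capitals.
Rab3d, higher, chr9:21918184-21918433, minus strand: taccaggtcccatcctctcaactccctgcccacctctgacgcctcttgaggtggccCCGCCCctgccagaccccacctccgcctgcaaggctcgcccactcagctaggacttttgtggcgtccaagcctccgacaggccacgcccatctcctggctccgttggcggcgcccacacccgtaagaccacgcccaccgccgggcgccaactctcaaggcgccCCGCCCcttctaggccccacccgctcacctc
Rab19, higher, chr6:39381103-39381352, plus strand: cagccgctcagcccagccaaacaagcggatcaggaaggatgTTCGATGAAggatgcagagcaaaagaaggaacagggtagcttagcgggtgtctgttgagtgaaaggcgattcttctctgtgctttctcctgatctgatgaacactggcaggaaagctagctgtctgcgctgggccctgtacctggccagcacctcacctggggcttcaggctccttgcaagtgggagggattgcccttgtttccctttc
Rab10, lower, chr12:3309970-3310219, minus strand: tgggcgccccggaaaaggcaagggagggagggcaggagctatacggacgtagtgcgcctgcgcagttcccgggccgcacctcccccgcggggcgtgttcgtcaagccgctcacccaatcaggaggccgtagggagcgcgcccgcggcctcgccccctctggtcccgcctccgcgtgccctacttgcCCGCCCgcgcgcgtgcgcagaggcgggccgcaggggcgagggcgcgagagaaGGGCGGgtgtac
Rab31, lower, chr17:65772753-65773002, minus strand: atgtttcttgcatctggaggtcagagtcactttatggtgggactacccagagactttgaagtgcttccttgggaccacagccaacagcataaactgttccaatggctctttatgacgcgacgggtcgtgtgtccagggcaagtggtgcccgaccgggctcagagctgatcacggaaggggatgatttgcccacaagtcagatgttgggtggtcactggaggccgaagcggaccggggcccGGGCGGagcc
The capitals are GC boxes in Rab3d, Rab10 and Rab31 and a STAT motif in Rab19.

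Late endosome, phagosome and lysosome Rabs had 4 of 8 members higher and none lower, with a median difference of 0.20. Of all genes 11.9% were higher and 15.6% lower, and of genes above the median signal 20.3% and 28.2%. The compartments are small, and none was tested as a set. Rab7, which drives fusion of late endosomes and phagosomes with lysosomes, gave 9.92, 9.64 and 10.00 in M(CSF2) and 9.31, 9.28 and 9.18 in M(CSF1). The groups did not overlap, and the 1.51-fold difference (95% interval 1.27 to 1.78, adjusted p = 0.00371) was larger than the spread within either group. Rab7b, which acts between late endosomes and the Golgi, was 7.59 ± 0.20 in M(CSF2) and 7.11 ± 0.12 in M(CSF1) (SD, n = 3 arrays each, adjusted p = 0.0174). Rab24, linked to autophagy, rose by 0.30 (adjusted p = 0.0263), and Rab12, which directs receptors to degradation, by 0.26 (adjusted p = 0.0377). These last 3 calls are not stable. With an array left out in turn, Rab7b passed in 2 of 6 fits and Rab24 and Rab12 in 1 of 6 each, with highest adjusted p of 0.0681, 0.0832 and 0.104. Rab9, which returns receptors from late endosomes to the Golgi, gave -0.23 (adjusted p = 0.116), and Rab9b gave 0.15. The phagosome genes Rab20 and Rab34 were not called, with 95% intervals of -0.23 to 0.22 and -0.19 to 0.20.

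Recycling and surface delivery Rabs had 5 of 13 members lower and 1 higher, with a median of -0.21. The shares lower were 15.6% of all genes and 28.2% of genes above the median signal. Rab10, which carries cargo, Toll-like receptor 4 included, to the macrophage surface, gave 8.06, 7.78 and 8.24 in M(CSF2), against 9.35, 9.28 and 9.26 in M(CSF1). All 3 M(CSF2) arrays lay more than 1 log2 unit below the lowest M(CSF1) array, a 2.41-fold difference (95% interval 1.99 to 2.91, adjusted p = 0.00013). Rab4b, of the rapid recycling route, gave 8.06, 8.34 and 8.09 in M(CSF2), against 9.12, 9.06 and 8.91 in M(CSF1), 1.82-fold lower (adjusted p = 0.000435). Its paralog Rab4a gave 4.62, 4.79 and 4.63 in M(CSF2), against 5.48, 5.33 and 5.58 in M(CSF1) (adjusted p = 0.000415). Both Rab4 genes thus had groups that did not overlap, with differences of -0.86 and -0.78.

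Rab11a, of the slow recycling endosome, gave 7.44, 7.30 and 7.65 in M(CSF2), against 8.39, 8.28 and 8.07 in M(CSF1). It was 1.72-fold lower (95% interval 1.42 to 2.08, adjusted p = 0.00178). Rab8b, which acts in transport from the Golgi to the surface, gave 8.49, 8.18 and 8.52 in M(CSF2), against 9.20, 9.04 and 9.07 in M(CSF1) (-0.71, adjusted p = 0.00172). Neither gene's groups overlapped. Rab15, an endosomal Rab best known from neurons, was the higher member. It gave 3.34, 3.62 and 3.34 in M(CSF2), where 2 arrays lay under the floor, against 2.93, 2.87 and 3.17 in M(CSF1), where all 3 did. Its difference of 0.44 was called (adjusted p = 0.0218) and passed in 2 of 6 fits with an array left out. Measured from the floor, which was not tested, it was at least 1.04-fold higher. Of the other 7 members none was called. Rab14, which links Golgi and endosomes, gave -0.34 (adjusted p = 0.0965), Rab35, of the plasma membrane, -0.21, Rab11b -0.20 and Rab8a 0.18, all 4 without overlap between the groups. Rab13 (0.13), Rab17 (0.10) and Rab25 (0.20) are known mainly from epithelia.

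Early endosome Rabs split, with 1 of 6 higher and 2 lower (11.9% and 15.6% of all genes). Rab31, which acts between the Golgi and early endosomes, gave 8.54, 8.75 and 8.86 in M(CSF2), against 10.03, 10.04 and 9.88 in M(CSF1). It was 2.41-fold lower (95% interval 2.05 to 2.83, adjusted p = 5.73e-05), the lowest adjusted p in the family, and every M(CSF2) array lay more than 1 log2 unit below every M(CSF1) array. The 3 forms of Rab5, which govern early endosome fusion, did not move together. Rab5b rose by 0.39 (adjusted p = 0.0111), Rab5c fell by 0.41 (adjusted p = 0.00551), and Rab5a gave -0.16 (95% interval -0.42 to 0.10, adjusted p = 0.367). Rab21 and Rab22a, of early and recycling endosomes, gave 0.04 and 0.11 and were not called.

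ER and Golgi Rabs had 6 of 15 members lower and 1 higher, with a median of -0.10. Here too 15.6% of all genes and 28.2% of genes above the median signal were lower. Rab1a, which moves vesicles from the ER to the Golgi, gave 8.82, 8.56 and 8.91 in M(CSF2), against 9.66, 9.63 and 9.59 in M(CSF1), 1.82-fold lower (adjusted p = 0.000393). Rab18, of the ER and lipid droplets, gave 6.20, 5.92 and 6.30 in M(CSF2), against 6.89, 7.00 and 6.86 in M(CSF1) (-0.77, adjusted p = 0.00117). In both genes M(CSF2) replicate 2 was the lowest array. Rab2a and Rab2b, which act in the early secretory route, fell by 0.43 and 0.47 (adjusted p = 0.00946 and 0.00844). Rab6a, of retrograde Golgi transport, fell by 0.49 (adjusted p = 0.0357), a call that held in 2 of 6 fits with an array left out. The highest adjusted p was 0.144, with M(CSF1) replicate 1 left out (-0.41).

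Rab39, placed at the Golgi and on phagosomes, gave 3.32, 3.12 and 3.24 in M(CSF2), all under the floor, against 4.05, 3.45 and 3.78 in M(CSF1). Its difference of -0.53 was called (adjusted p = 0.0295) and passed in 1 of 6 fits with an array left out. Measured from the floor, which was not tested, it was at least 1.30-fold lower. Rab19, a Golgi Rab with few known functions, gave 4.24, 4.42 and 4.33 in M(CSF2), against 3.52, 3.69 and 3.84 in M(CSF1). It was 1.56-fold higher (95% interval 1.33 to 1.83, adjusted p = 0.00181), with no overlap between the groups. The other 8 members, from Rab43 (-0.25) through Rab1b (-0.10), Rab6b (-0.06), Rab39b (-0.02), Rab33a (0.08), Rab36 (0.10) and Rab33b (0.10) to Rab30 (0.18), were not called.

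Rabs of secretory granules and lysosome-related organelles held the largest differences in either direction, 2 of 12 higher and 2 lower (11.9% and 15.6% of all genes). Rab44, a long Rab with an EF-hand domain that is linked in mice to mast cell degranulation and osteoclast formation, gave 5.06, 5.22 and 5.41 in M(CSF2), against 4.17, 4.28 and 4.02 in M(CSF1). It was 2.10-fold higher (95% interval 1.76 to 2.51, adjusted p = 0.000237). Rab3d, of secretory granules, gave 6.65, 6.65 and 6.69 in M(CSF2), against 5.98, 5.91 and 6.07 in M(CSF1), 1.60-fold higher (adjusted p = 0.000235). In both genes all M(CSF2) arrays lay well above all M(CSF1) arrays.

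Rab38, which with Rab32 sorts cargo to melanosomes and related organelles, gave 3.42, 3.60 and 3.43 in M(CSF2), against 6.22, 5.34 and 4.93 in M(CSF1). It was 4.03-fold lower (95% interval 2.53 to 6.42, adjusted p = 0.0013), with the widest spread of the called members, an SD of 0.66 in M(CSF1). The M(CSF2) mean of Rab38, 3.48, lay close to the floor of 3.38, which may limit the size of its fold. With an array left out in turn its difference ran from -2.30 to -1.65, and it stayed called. Rab32, which also defends macrophages against some vacuolar bacteria, gave 6.15, 5.53 and 6.13 in M(CSF2), against 6.78, 6.73 and 6.76 in M(CSF1) (-0.82, adjusted p = 0.00665). Its M(CSF2) replicate 2 stood apart from the other two, and without it the difference was -0.62. Rab27a and Rab27b, which bring lysosome-related organelles and granules to the surface, gave 0.21 (adjusted p = 0.222) and -0.02 (adjusted p = 0.881). Rab3a, Rab3b, Rab3c, Rab26, Rab29 and Rab37 gave between 0.00 and 0.15 and were not called.

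Among the remaining 5 genes, Rab28, of cilia and photoreceptors, rose by 0.42, at 6.14 ± 0.07 in M(CSF2) and 5.73 ± 0.05 in M(CSF1) (SD, n = 3 arrays each, adjusted p = 0.00353). Rab23, a Hedgehog pathway regulator, gave -0.13, and Rab40b, Rab40c and Rab42 gave 0.03, 0.16 and 0.21, none called. In all, the 34 members not called ran from -0.34 to 0.21, and for 33 of them the difference was under 0.25 in size. Their 95% intervals reached from -0.64 to 0.54, so shifts of that size are not excluded for the most variable ones.

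**Figure D2:**
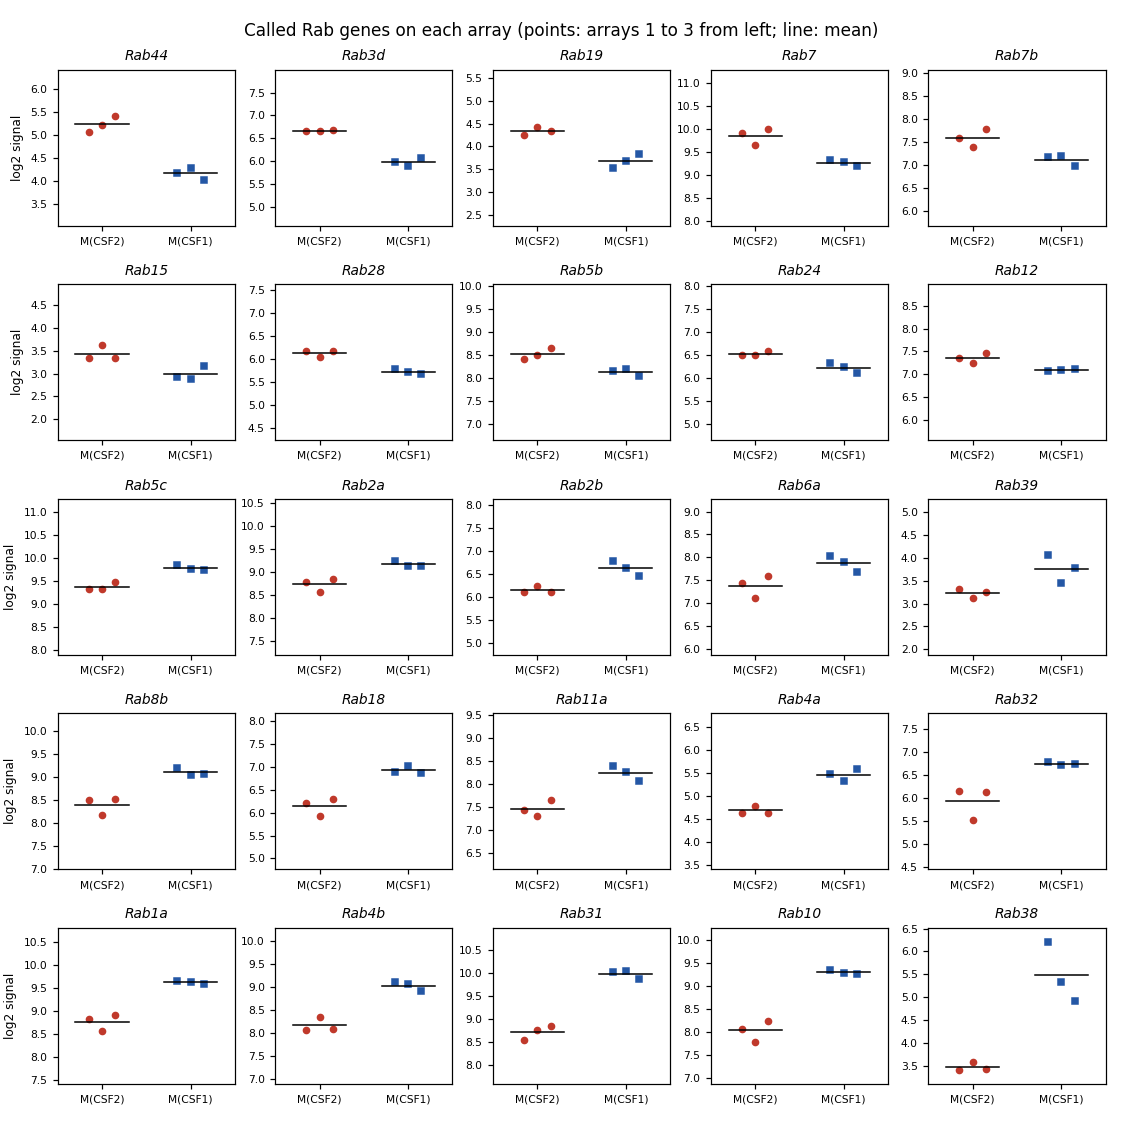
Log2 signal of the 25 called Rab genes on each array, M(CSF2) left of M(CSF1), points for the 3 arrays and a line for their mean, every panel spanning the same number of log2 units. The groups separate in each panel, and Rab38 shows the largest gap and the widest M(CSF1) spread.

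Groups did not overlap in 35 of the 59 genes, 14 higher and 21 lower. Of all genes 38.9% did not overlap, 19.1% higher and 19.8% lower. Among genes above the median signal the shares were closer, 30 of 40 Rab genes and 6103 of 9969 genes. The 35 Rab genes without overlap hold all 25 called genes and 10 that were not called. For the lowest array of a group, exact ties went to the lower-numbered replicate, here and over all genes, which lowers the counts of replicate 3. M(CSF2) replicate 2 was counted as lowest in 9 of the 15 lower Rab genes and in 4 of the 10 higher ones. M(CSF2) replicate 3 was counted in 0 of the 25, though in Rab15 it tied with replicate 1 at 3.34. In Rab3d replicates 1 and 2 tied at 6.65. Over all genes, replicate 2 was lowest in 1558 of the 3115 called lower and in 1023 of the 2373 called higher. Replicate 3 was lowest in 601 (19.3%) of those called lower and in 395 (16.6%) of those called higher.

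For 12 pairs of close paralogs, picked by hand and not all that the family holds, the difference between their differences was tested with an exact 2-sided permutation test over the 6 arrays. With 3 arrays a group the smallest p this exact test allows is 0.1, which 7 pairs reached (0.171 adjusted over the 12 pairs), so no pair could pass a threshold of 0.05. In the Rab8 pair Rab8a lay at 0.18 and Rab8b at -0.71, a gap of 0.89 (SE 0.13). In the Rab3 pair Rab3a lay at 0.06 and Rab3d at 0.68, a gap of -0.62 (SE 0.09), and in the Rab11 pair the gap of Rab11a to Rab11b was -0.59 (SE 0.09). Rab6a and Rab6b differed by -0.43 (SE 0.13), Rab5a and Rab5c by 0.25 (SE 0.09), and Rab9 and Rab9b by -0.37 (SE 0.22). Rab32 and Rab38 both fell, with a gap of 1.19 (SE 0.45), though Rab38 lay close to the floor in M(CSF2). The gap was 0.03 (SE 0.15) for Rab2a and Rab2b, 0.08 (SE 0.13) for Rab4a and Rab4b, and 0.12 (SE 0.05) for Rab7 and Rab7b, and in each of these pairs both members were called in the same direction. Rab27a and Rab27b (0.22) and Rab33a and Rab33b (-0.02) had no called member. Rab1a (-0.86, called) with Rab1b (-0.10, not called) and Rab5b (0.39) with Rab5c (-0.41), called in opposite directions, were not among the pairs tested.

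**Figure D3:**
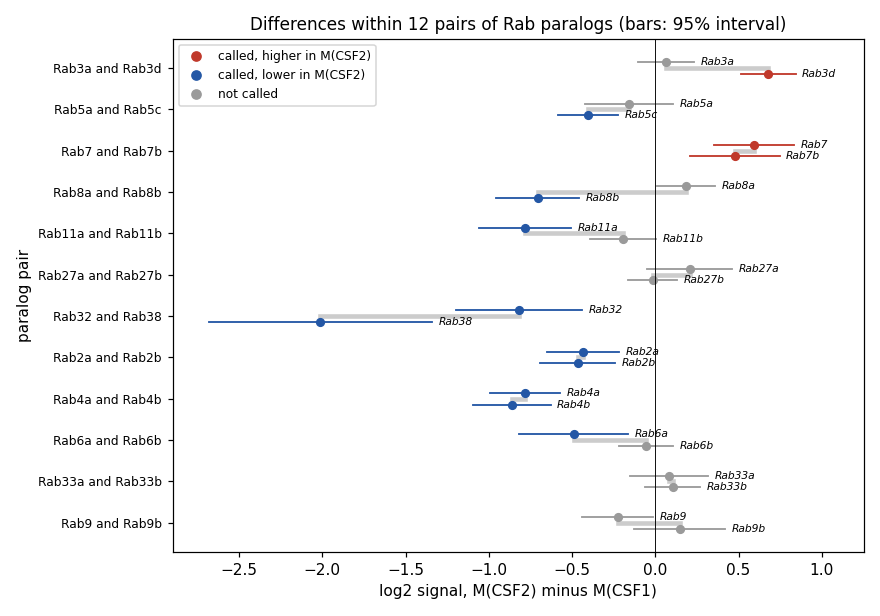
Differences in log2 signal, M(CSF2) minus M(CSF1), for both members of 12 paralog pairs, with 95% intervals as bars and a grey line joining the pair. The Rab2, Rab4 and Rab7 pairs sit close together, and the Rab8, Rab3, Rab11 and Rab38 with Rab32 pairs lie apart.

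The genes that act on Rab proteins were counted in lists of GDIs, escort and prenylation proteins, GEFs, GAPs, effectors and kinases. Of 138 listed genes 133 were measured, with 19 higher and 37 lower (42.1% called, against 27.5% of all genes) and a median of -0.07. On every array 117 of the 133 lay above the floor, against 12175 of all 19938 genes. Of the 9969 genes above the median signal, 48.6% were called. Among the GDI and prenylation genes 1 of 7 was higher and 3 lower. Gdi2, which extracts GDP-bound Rabs from membranes, gave 8.48, 8.21 and 8.51 in M(CSF2), against 9.48, 9.41 and 9.43 in M(CSF1) (-1.04, adjusted p = 0.000111). All M(CSF2) arrays lay below all M(CSF1) arrays. Rabggtb, a subunit of the prenyl transferase, fell by 0.48, and the escort protein gene Chm by 0.36 (adjusted p = 0.0323, passing in 1 of 6 fits with an array left out). Rabac1, which counters GDI at membranes, rose by 0.84 (adjusted p = 0.000352).

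GEFs had 6 of 38 higher and 12 lower (47.4% called, against 27.5% of all genes). Dennd3, a GEF for Rab12, gave 6.83, 6.34 and 6.42 in M(CSF2), against 4.14, 4.00 and 4.18 in M(CSF1), the largest rise in these lists (2.42, SE 0.13, adjusted p = 8.76e-06). Dennd1b, a Rab35 GEF, rose by 1.37, and Rabgef1, a Rab5 GEF also called Rabex-5, by 0.57. Related GEF genes, named here after their values were seen, went the other way. The other Dennd1 genes listed, Dennd1a (-1.31, adjusted p = 4.55e-05) and Dennd1c (-0.54, adjusted p = 0.0269), fell. Gapvd1, also a Rab5 GEF, fell by 0.42 (adjusted p = 0.0362). The Rab14 GEF gene Dennd6a (-1.91), Sbf2 (-1.62), which acts on Rab28 and Rab21, and Rab3il1 (-1.60), which encodes a GEF for Rab8, fell most. Rab3ip, the other Rab8 GEF and named here after its values were seen, rose by 0.37 (adjusted p = 0.0233).

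GAPs had 5 of 36 higher and 12 lower (47.2% called, against 27.5% of all genes). Tbc1d2 (Armus), a Rab7 GAP, gave 6.11, 6.29 and 6.24 in M(CSF2), against 4.61, 4.74 and 4.57 in M(CSF1), a rise of 1.58 (adjusted p = 7.03e-06). Rab7 itself rose by 0.59. Other listed GAPs for Rab7, Tbc1d15 (-0.22) and Tbc1d5 (-0.28), were not called. Rabgap1l and Tbc1d9 rose by 0.92 and 0.73. Tbc1d14 (-1.54), a Rab11 partner in autophagy, Tbc1d2b (-1.04) and Tbc1d1 (-0.98), a GAP for Rab10, fell most.

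Effectors had 5 of 51 higher and 10 lower (29.4% called, against 27.5% of all genes). Mical1, an actin-oxidising enzyme that binds several Rabs, gave 7.49, 7.33 and 7.28 in M(CSF2), against 5.25, 5.25 and 5.50 in M(CSF1), a rise of 2.03 (adjusted p = 5.1e-06). Rab11fip1, which couples Rab11 to recycling, rose by 1.59 while Rab11a fell. The other Rab11fip genes listed were mixed. Rab11fip4 rose by 0.46 (adjusted p = 0.0215) and Rab11fip5 fell by 0.67 (adjusted p = 0.00152). Rab11fip2 (-0.01) and Rab11fip3 (-0.07) were not called. The Rab9-binding Plin3 rose by 0.96. Pikfyve (-1.30), a phosphoinositide kinase of endosomes listed here although it is not a classical Rab effector, Ocrl (-1.20), a phosphoinositide phosphatase that binds many Rabs, and Appl1 (-0.97), a Rab5 effector, fell most. The LRRK kinases, which phosphorylate Rab proteins, were both higher. Lrrk2, whose substrates include Rab8a, Rab10, Rab12 and Rab29, gave 5.61, 5.28 and 5.58 in M(CSF2), against 3.72, 3.94 and 3.63 in M(CSF1), a rise of 1.72 (adjusted p = 2.88e-05). That is the brighter of its probe sets. The other lay under the floor at 2.64 in M(CSF2) and 2.54 in M(CSF1), a difference of 0.10 that was not called, and the mean of both gave 0.91 (adjusted p = 0.000124). Lrrk1, which acts on Rab7, rose by 1.26 (adjusted p = 2.18e-05).

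**Figure D4:**
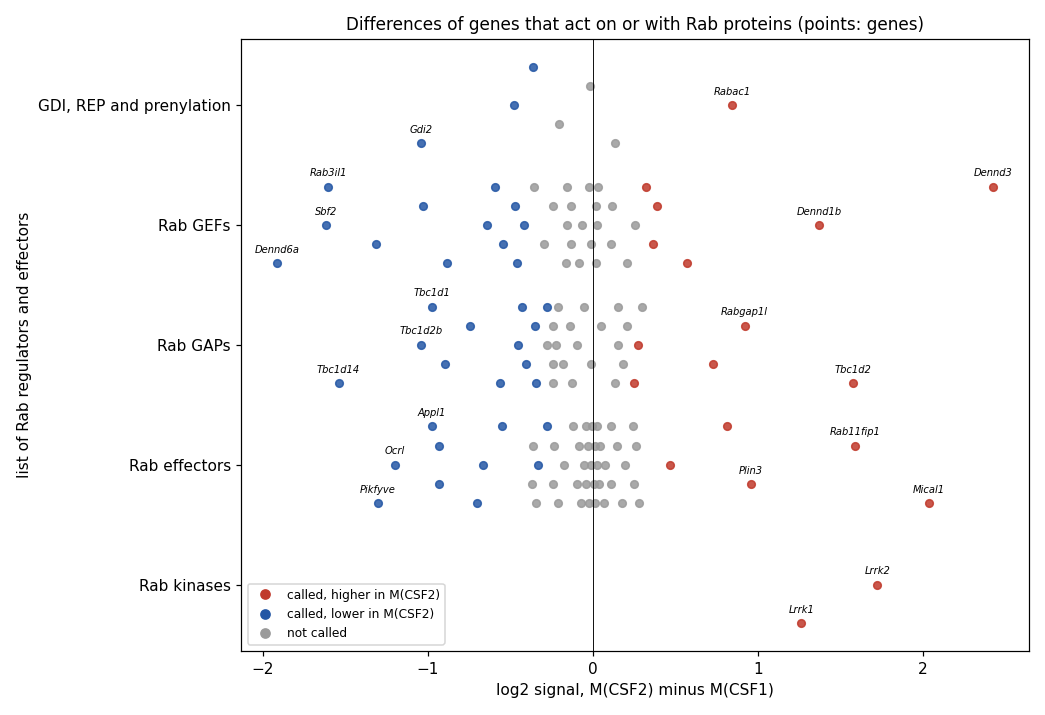
Differences in log2 signal, M(CSF2) minus M(CSF1), of the measured genes that act on or with Rab proteins, 1 point a gene and 1 row a list, with vertical offsets only to separate points. Dennd3, Mical1, Lrrk2 (by the brighter of its probe sets, with 0.91 for their mean), Rab11fip1 and Tbc1d2 lie farthest right, and Dennd6a, Sbf2, Rab3il1 and Tbc1d14 farthest left.

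The partners of Rab7 were looked at together after their values were seen. Of its GEF subunits Mon1a rose by 0.32 (adjusted p = 0.0488), while Mon1b (0.26) and Ccz1 (-0.36) were not called. Among its effectors Plekhm1, which tethers late endosomes to lysosomes, fell by 0.93 (adjusted p = 0.00045) and the sterol-sensing Osbpl1a by 0.55. The dynein adaptor Rilp (0.26), the tethering subunits Vps39 (0.00) and Vps41 (-0.34) and the kinesin adaptor Fyco1 (-0.21) were not called. Rubcn (-0.09) was not called either. For Rab32 and Rab38, the subunits of their GEF, Hps1 (-0.16) and Hps4 (0.20), were not called, and their effector Ankrd27 (Varp) fell by 0.59 (adjusted p = 0.0085).

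Macrophage markers were bright in both groups, with all 8 above the floor on every array, 3 higher and 3 lower in M(CSF2). Because Rab44 and Rab3d are known from granulated cells, markers of other cells are given beside them. For comparison with the counts, 11.9% of all genes were higher and 15.6% lower. Of 10 mast cell and basophil markers 4 were higher and 0 lower, and their summed linear signal was 516 to 601 in M(CSF2) and 97.6 to 119 in M(CSF1). Hdc rose by 4.43, Gata2 by 2.52 and Kit by 1.32, and Hdc and Gata2 made up most of the M(CSF2) sum. The basophil protease gene Mcpt8 was also called (0.36, adjusted p = 0.0469), with means of 3.06 in M(CSF2) and 2.70 in M(CSF1), both under the floor. The tryptase gene Tpsb2 lay above the floor, at 3.53 in M(CSF2) and 3.62 in M(CSF1), and was not called. The mast cell protease genes Cpa3, Mcpt4 and Cma1 and the receptor chains Fcer1a and Ms4a2 had means from 2.39 to 2.94 in M(CSF2) and from 2.32 to 2.71 in M(CSF1), under the floor, and were not called. Of 10 neutrophil markers 3 were higher and 1 lower, with a summed signal of 2601 to 2978 in M(CSF2) and 675 to 777 in M(CSF1). The higher ones were Mmp8 (11.04 in M(CSF2), 6.60 in M(CSF1)), S100a8 (8.46 in M(CSF2), 6.09 in M(CSF1)) and Ltf. Like Ngp and Retnlg, Ltf had means under the floor in both groups. The lower one was Csf3r (-1.57). Mmp8 made up most of the M(CSF2) sum. S100a9 (-0.34, adjusted p = 0.0717), Elane (-0.06), Mpo (0.05) and Camp (0.60, adjusted p = 0.117) were not called. Of 8 osteoclast markers 4 were higher and 2 lower, with sums of 3072 to 3911 in M(CSF2) and 1874 to 2588 in M(CSF1). The list was split. Dcstamp (4.70), Atp6v0d2 (2.81), Ctsk (0.91) and Ocstamp (0.76) were higher, and Tnfrsf11a (-2.46) and Acp5 (-1.09) lower. Oscar and Calcr were not called, and Calcr lay under the floor by mean in both groups. Of 7 dendritic cell markers 4 were higher and 0 lower, with sums of 2400 to 2971 in M(CSF2) and 131 to 157 in M(CSF1). Most of the M(CSF2) sum came from Itgax (10.84 in M(CSF2), 5.78 in M(CSF1)), Ccr7 (9.10 and 5.17) and Irf4 (8.09 and 3.49). Zbtb46 (0.26, adjusted p = 0.0636) and Flt3 (-0.08, adjusted p = 0.522) were not called. Xcr1 and Clec9a, the last of them counted as higher, lay under the floor by mean in both groups. Of 6 lymphocyte markers 1 was lower, with sums of 62.3 to 68.8 in M(CSF2) and 68.5 to 76.7 in M(CSF1). All 11 cell cycle genes measured were lower, with a median of -2.37. The part of these genes in the Rab differences was not tested, and in bulk RNA fewer cells of a type and less RNA per cell cannot be told apart.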

How the data were processed

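RNA of 3 M(CSF2) and 3 M(CSF1) samples was measured on 1-colour Affymetrix arrays. The authors deposited 1 log2 value per array for 28941 probe sets. Base 2 was inferred from the range, 1.48 to 13.27. The submitters' processing notes name MAS5, and background correction, normalization and summary are not given in the sources used here. Values repeated exactly between arrays in 6985 genes, 18 of them Rab genes. There are no detection calls, and the number of arrays limits precision.

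The platform annotation names 21789 probe sets with 1 gene, 1621 with several genes and 5531 with none. Those with 1 gene were used, the brightest per gene, without a filter on low values. M(CSF2) minus M(CSF1) was tested in limma 3.58.1 (R 4.3.3, lmFit then eBayes, 2-sided), with Benjamini-Hochberg adjustment over 19938 genes. Calls needed an adjusted p under 0.05. Paralog pairs used scipy 1.17.1.

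No block was used, because no source says that a replicate number marks a shared mouse or day. Same-numbered replicates did not deviate together (correlations 0.00391, -0.0441 and -0.253). Members, lists and compartments (from textbook roles, though many Rabs act at several membranes) were chosen with earlier results of these data known. The motifs, the floor of signal and a filter at that floor were also chosen so. Every called Rab gene is named, with array values from a difference of 0.5, and the 3 largest called genes per direction and machinery list. Folds of genes under the floor in 1 group run from the brighter mean to the floor. Alternatives changed normalization, centring, filters, probe set choice, variance model, block and arrays.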

Additional observations from a re-analysis of the deposited data

How the results depend on the processing

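The counts of 10 higher and 15 lower Rab genes held within 1.5 times under quantile normalization, centring on array medians, both filters, both treatments of probe sets, the intensity trend, robust variance and the replicate block. The replicate block gave 8 higher and 15 lower, centring also 8 and 15. With an array left out in turn, higher Rab genes numbered 6 to 8, with 6 without M(CSF2) replicate 1, and lower ones 13 to 15. Of the 25 called Rab genes, 19 were called in every alternative that held them, and Rab6a, Rab7b, Rab12, Rab15, Rab24 and Rab39 were not. Rab12 and Rab24 also lost the call with the replicate block and with centring, and Rab12 with the intensity trend. Of the members not called, Rab8a passed after quantile normalization (0.25), Rab14 with genes above the median signal (adjusted p = 0.049) and Rab43 without M(CSF1) replicate 3 (-0.34). The median Rab difference of 0.02 became -0.13 with genes above the median signal, where 40 members remain, and -0.02 after centring. Machinery genes called ranged from 15 to 20 higher and 26 to 35 lower with an array left out, and were 16 and 31 with the replicate block. All genes called ranged from 4254 to 5490 with an array left out. No called Rab gene changed direction in these alternatives. The labels do not say if same-numbered samples share a mouse or day, so the block is not read as a pairing.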
